A study of Mus musculus with 4 samples.

Results

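Transcripts of glycolysis, the pentose phosphate pathway and the response to low oxygen were followed in mouse dendritic cells, which take up antigen and present it to T cells. The list holds 34 genes chosen by their role; the rule uses no measured value, but the choice was made with earlier results of these data known. A gene was read on its brightest probe set, which gave 30 genes with a signal among 9473 genes measured on the arrays. Gpi1, Eno1 and G6pdx had no probe set named to them alone in the annotation used and were not analysed here. Gapdh was named alone only on control probe sets of the array, so its values are given as a description and stand in no count.

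All 4 samples were cells labelled CD11c+ and IL10-/-, that is, from animals lacking a functional interleukin 10 gene by their label, and no sample with an intact gene was analysed here. One group was kept in media, one with SEA, one with LPS and one with SEA/LPS, each for 6 h, and each group was measured on 1 array. Lipopolysaccharide (LPS) comes from the outer membrane of Gram-negative bacteria and is sensed through TLR4. SEA is not spelled out in the labels; in work of this kind the letters usually stand for the soluble egg antigen of the worm Schistosoma mansoni, and no value rests on that reading. The sources used here give neither doses, nor the tissue the cells came from, nor whether arrays came from separate cultures or animals. With 1 array per group there was no replicate spread and no test, so every difference below compares 2 arrays, whose number limits the precision.

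Glycolysis breaks glucose down to pyruvate in the cytosol, and pyruvate is either reduced to lactate and exported or oxidised in mitochondria by pyruvate dehydrogenase, which pyruvate dehydrogenase kinases switch off. The pentose phosphate pathway branches off at glucose 6-phosphate and supplies NADPH and ribose. Many of these genes are targets of the hypoxia-inducible factor, whose alpha subunit is encoded by Hif1a and is marked for destruction by the prolyl hydroxylases of the Egln family when oxygen is present. Dendritic cells stimulated through TLR4 are known for a rapid increase in glycolytic flux, part of which is set by enzyme activity and not by transcript level.

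The authors' processed signals are linear array intensities, scaled so that the 4 arrays had trimmed means between 150.06 and 150.07. Signals below 33.3 (percentile 40 over the arrays together) were set to that floor, and all 30 genes lay above it on all 4 arrays. The log2 signal of Il10, the gene the label names as deleted, was 5.24 in media, 5.70 after SEA, 8.25 after LPS and 6.54 after SEA/LPS; which part of the gene its probe set covers is not known here, so it checks no label. The cell type label was checked against marker genes. Of 11 dendritic cell markers, 11 lay above the floor on the media, SEA and LPS arrays and 10 on the SEA/LPS array, where Flt3 read 30.7. Flt3 (30.7 to 62.2), Cd209a (36.3 to 49.8) and Zbtb46 (77.9 to 104.5) were dim, so for them the count above the floor is a weak check. Each other marker of that list read at least 175.1 on every array. Itgax, which encodes CD11c, read between 1850.7 and 2731.7. The T cell markers Cd3d, Cd3e, Cd3g and Cd4 were at or under the floor on every array, and summed signals of the T cell, B cell, NK cell, neutrophil, mast cell, erythroid and stromal lists lay between 81.7 and 552.8. All 7 named markers of macrophages and monocytes were above the floor on every array, with summed signals of 10072.7 in media, 9416.7 after SEA, 7280.4 after LPS and 7817.9 after SEA/LPS, and their part in the results was not tested. In such bulk samples fewer cells of a type and less RNA per cell cannot be told apart. As a measure of RNA integrity, the 3' over 5' control signal of Gapdh ranged from 2.21 in media to 3.12 after SEA/LPS. The hybridisation controls, RNAs added in fixed amounts, were brighter than in media by a mean of 0.09 log2 on the SEA array, 0.55 on the LPS array and 0.31 on the SEA/LPS array.

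Promoter sequences are shown for 4 genes on which the results below turn: Slc2a1, Slc16a3 and Pdk1, which were among the genes lowest under LPS relative to media, and Hif1a, which was highest. Each is the 250 bases before the start of transcription, read 5' to 3' on the strand of the gene, from RefSeq on GRCm38.p6. Capitals mark ACGTG on either strand (CACGT where it lies on the other strand). These letters are a form of the core of the element bound by the hypoxia-inducible factor. Other forms of that core, such as GCGTG, were not searched for and are not marked. The 2 reading directions overlap where they spell CACGTG.
Slc2a1 (chr4:119108495-119108744, + strand): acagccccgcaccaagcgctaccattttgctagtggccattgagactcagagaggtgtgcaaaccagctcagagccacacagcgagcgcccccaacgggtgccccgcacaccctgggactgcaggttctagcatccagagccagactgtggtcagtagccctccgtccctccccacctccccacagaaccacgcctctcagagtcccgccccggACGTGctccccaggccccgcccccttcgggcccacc
Slc16a3 (chr11:120948817-120949066, + strand): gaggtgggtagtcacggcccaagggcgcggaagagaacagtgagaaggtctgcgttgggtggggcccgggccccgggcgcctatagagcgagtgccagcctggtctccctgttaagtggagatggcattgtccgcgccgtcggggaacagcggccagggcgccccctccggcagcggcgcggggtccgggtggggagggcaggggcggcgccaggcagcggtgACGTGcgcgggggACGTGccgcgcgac
Pdk1 (chr2:71872974-71873223, + strand, the first of 2 windows): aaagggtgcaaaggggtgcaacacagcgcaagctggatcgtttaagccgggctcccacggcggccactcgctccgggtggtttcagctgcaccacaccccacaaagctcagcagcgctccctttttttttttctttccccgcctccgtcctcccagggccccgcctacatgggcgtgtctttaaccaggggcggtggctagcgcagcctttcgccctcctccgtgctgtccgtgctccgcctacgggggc
Hif1a (chr12:73907617-73907866, + strand): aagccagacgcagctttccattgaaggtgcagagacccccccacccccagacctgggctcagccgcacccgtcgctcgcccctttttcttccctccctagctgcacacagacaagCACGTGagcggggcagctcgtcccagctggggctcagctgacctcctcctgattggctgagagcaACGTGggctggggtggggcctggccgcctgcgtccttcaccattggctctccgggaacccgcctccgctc
In the Slc2a1 window the letters begin 36 bases before the start of transcription, and in that of Slc16a3 they occur at 27 and at 14 bases before it. Hif1a holds them at 135 and 134 bases, where both strands read the same 6 bases, and again at 70 bases, while neither window of Pdk1 holds them. All 34 listed genes had at least 1 window; 18 of them (52.9%) held the letters in at least 1 window, against 18.5% of 27025 genes in the table, and by window the shares were 42.9% of 49 and 16.6% of 32851. Of the 6 genes that were at least 2-fold lower with LPS than in media, Slc2a1 and Slc16a3 held them and Pdk1, Pfkl, Pdha1 and Taldo1 did not. The list was chosen by roles that include the response to low oxygen, and the motif for its link to that response. The higher share among the listed genes is therefore no independent result. A match is a run of letters and not a measured binding site.

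LPS over media put more of these genes past 2-fold than any other comparison, all of them towards lower signal. Of 30 genes, 6 were at least 2-fold lower with LPS, against a background of 8.43% of all 9473 genes and 8.58% of the 7142 genes that, like these 30, were above the floor on all 4 arrays. None was at least 2-fold higher, against backgrounds of 6.06% and 6.17%. The 6 were Pdk1, Slc2a1, Taldo1, Pdha1, Slc16a3 and Pfkl. The median log2 difference over the 30 genes was -0.50, beside -0.06 over all genes and -0.12 over the 7142. In all, 22 of the 30 were below 0 (73.3%), against 53.3% of all genes and 57.6% of the 7142. The member next inside the 2-fold line was Pfkl (-1.12) and the one next outside it was Hif1a (0.97), on the higher side. Scaling decides how many pass the line: with the arrays scaled to the 75th percentile 5 were lower and 1 higher, and with scaling to the hybridisation controls 16 were lower and 0 higher. That last scaling moved the median of all genes to -0.56 and that of the 30 genes to -1.05.

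**Figure D1:**
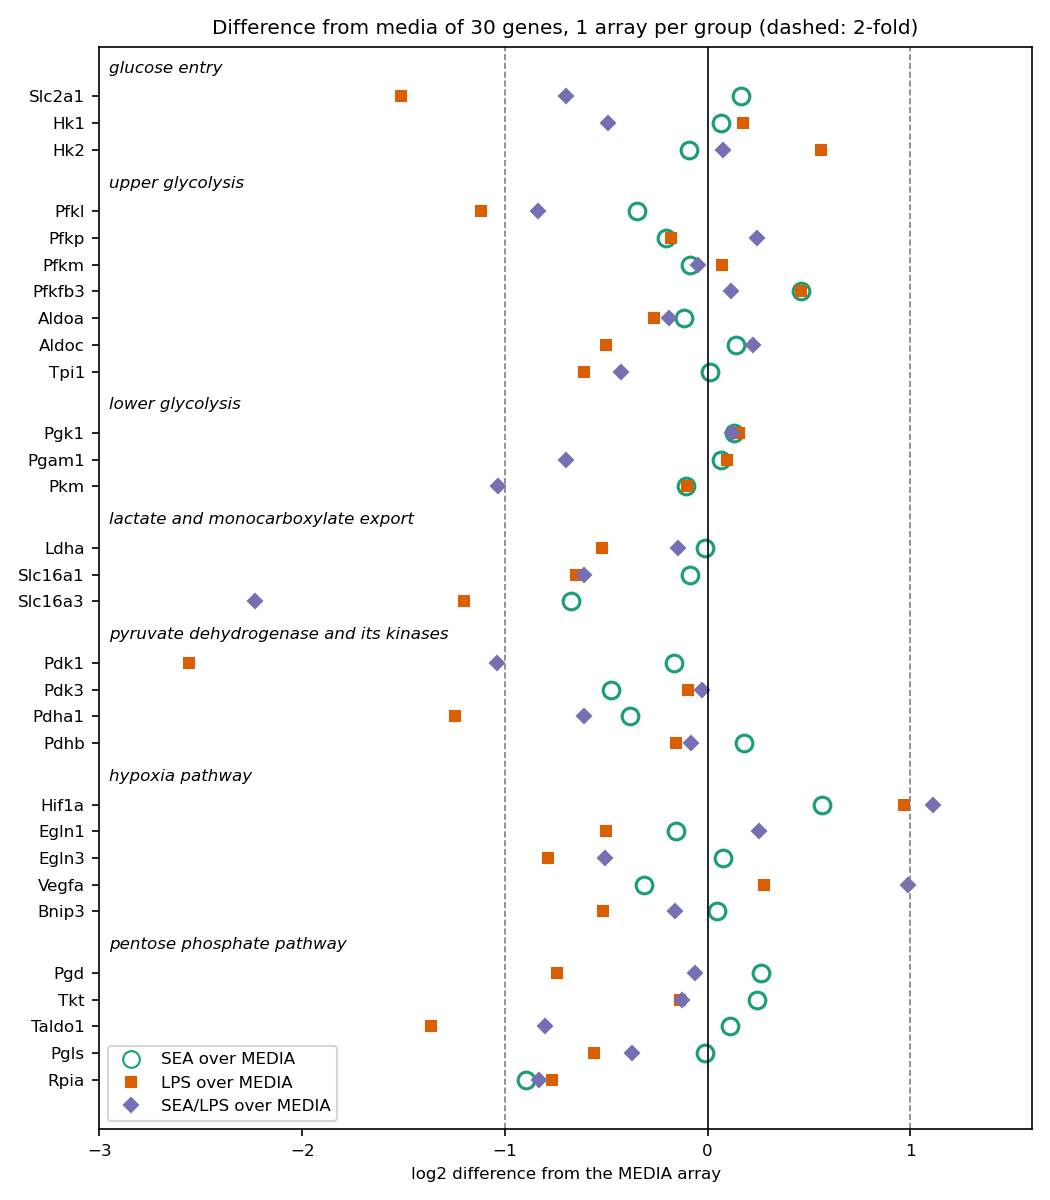
Log2 difference from the media array (horizontal axis) of the 30 genes, grouped by role, for SEA (open circles), LPS (squares) and SEA/LPS (diamonds), each from 1 array. The LPS squares of Pdk1, Slc2a1, Taldo1, Pdha1, Slc16a3 and Pfkl lie left of the 2-fold line, and Hif1a lies to the right of 0 in all 3 conditions.

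The transcripts for uptake and trapping of glucose were split between the transporter and the hexokinases. Slc2a1 encodes GLUT1, the widespread glucose transporter, and read 688.5 in media, 771.1 after SEA, 241.0 after LPS and 425.0 after SEA/LPS. Its signal was thus high on both arrays without LPS, lowest with LPS alone and between them with SEA/LPS. With LPS it was 2.86-fold lower than in media (log2 difference -1.51), and with SEA/LPS it was 1.62-fold lower. The 2 other probe sets of Slc2a1 read -1.21 and -1.04 for LPS over media. They differed on SEA/LPS over LPS, where the brightest read 0.82 and the others 0.26 and -0.15. Hk2, the inducible hexokinase that phosphorylates glucose, read 985.6 in media, 924.4 after SEA, 1450.6 after LPS and 1038.0 after SEA/LPS, so that the LPS array stood highest and the other 3 lay close together. Hk2 was 1.47-fold higher with LPS than in media (0.56), short of 2-fold, and 0.01 under scaling to the hybridisation controls. Hk1, the constitutive hexokinase, read 503.5, 526.9, 567.7 and 358.0 in the same order of conditions, lowest with SEA/LPS.

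In upper glycolysis, which spends ATP to split the sugar, 1 of 7 genes was at least 2-fold lower with LPS. That is 14.3%, against backgrounds of 8.43% of all genes and 8.58% of those above the floor throughout. The median LPS difference was -0.26, beside -0.06 and -0.12. Pfkl, the liver-type subunit of phosphofructokinase, read 460.7 in media, 362.2 after SEA, 212.1 after LPS and 257.7 after SEA/LPS, with both LPS arrays under both arrays without it. It was 2.17-fold lower with LPS than in media, but its other probe set read 0.14 for that difference, and the mean of both was -0.49. Of the other phosphofructokinase subunits, Pfkp (974.7, 846.6, 860.0 and 1153.5) and Pfkm (145.1, 136.5, 152.4 and 140.6) differed from media by at most 0.24 and 0.09 in size on these probe sets. The other, dimmer probe set of Pfkp read 91.2, 43.8, 78.9 and 56.1, which is -1.06 for SEA over media, and the mean of both was -0.63 there and -0.23 for SEA/LPS over media. Pfkfb3, which makes the activator fructose 2,6-bisphosphate, was dim at 60.1 in media, 82.6 after SEA, 82.6 after LPS and 65.0 after SEA/LPS. Tpi1, triose phosphate isomerase, read 1175.2, 1183.7, 770.9 and 875.1, and its LPS difference was -0.61 on this probe set and -0.62 and -1.04 on the others. The aldolases were also below media with LPS, Aldoa at -0.26 with its 3 other probe sets between -0.78 and -0.54, and Aldoc at -0.50 and -0.49 on its 2 probe sets.

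In lower glycolysis, where ATP is regained, Pkm and Pgam1 showed a different order of the arrays. Pkm, pyruvate kinase, read 1832.6 in media, 1704.6 after SEA, 1710.8 after LPS and 895.3 after SEA/LPS. Pgam1, phosphoglycerate mutase, read 2323.0, 2430.3, 2479.7 and 1431.6 in that order. In both genes 3 arrays lay close together and the SEA/LPS array stood alone below them. Relative to LPS, Pkm was 1.91-fold and Pgam1 1.73-fold lower with SEA/LPS, and relative to media Pkm was 2.05-fold lower (-1.03, or -0.83 with scaling to the 75th percentile). Each rests on a single probe set. Pgk1, phosphoglycerate kinase, was bright and even on its brightest probe set, at 6705.3, 7344.5, 7454.0 and 7297.0. Its other probe sets were lowest with LPS. They read 4241.9, 4540.7, 3788.7 and 4407.8, and 804.1, 823.2, 659.3 and 946.9. The 3' control probe set of Gapdh, glyceraldehyde phosphate dehydrogenase, was even at 5298.4, 5800.4, 5516.4 and 5758.2. The middle one read 4058.3, 3206.4, 2743.7 and 3064.4, lowest with LPS (-0.56). The 5' control probe set of Gapdh was lowest with SEA/LPS, at 1845.3 against 2152.5 to 2397.4 on the others; the part of RNA integrity in the Pkm and Pgam1 values was not tested.

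Transcript signals for lactate formation and export were below media with LPS in each of the 3 genes, where 53.3% of all genes were below 0. Slc16a3, which encodes the lactate exporter MCT4, read 650.9 in media, 408.4 after SEA, 283.3 after LPS and 138.3 after SEA/LPS. Its signal was lower with each agent alone than in media and lowest with both. The LPS signal was 2.30-fold lower than media, the SEA/LPS signal 4.71-fold lower than media and 2.05-fold lower than LPS. The first 2 of these stayed past 2-fold under each of 8 other settings, between -1.75 and -1.06 and between -2.55 and -2.03. The last was short of it under all 3 scalings and the pseudocount (-0.79 at the smallest). Slc16a3 has a single probe set, so the settings of probe choice could not change these values. Both other floors also left them unchanged. Ldha, which reduces pyruvate to lactate, read 3533.0, 3497.9, 2466.0 and 3196.7, lowest with LPS alone (-0.52). Slc16a1, which encodes the monocarboxylate transporter MCT1, was dim at 99.4, 93.7, 63.4 and 65.1, with both LPS arrays under both others.

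**Figure D2:**
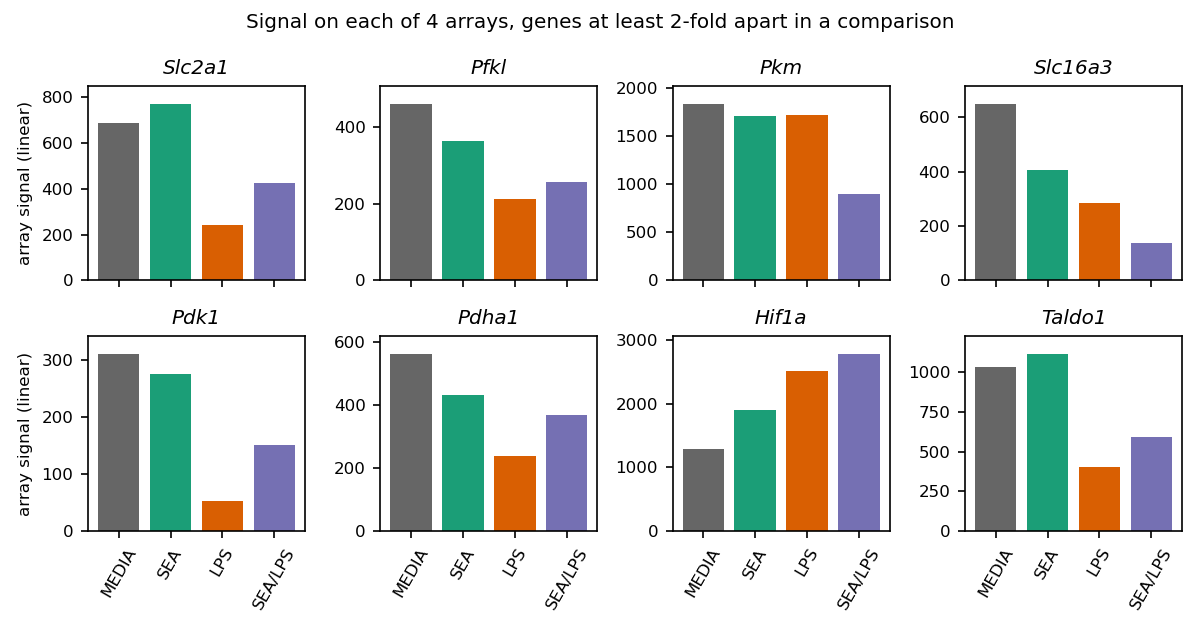
Linear array signal (vertical axes, each from 0 on its own scale) of the 8 genes that were at least 2-fold apart in any comparison, on the media, SEA, LPS and SEA/LPS arrays, 1 bar per array. Slc2a1, Pfkl, Pdk1, Pdha1 and Taldo1 are lowest on the LPS array, Pkm and Slc16a3 on the SEA/LPS array, and Hif1a is lowest in media.

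Of the kinases and subunits of pyruvate dehydrogenase, Pdk1 and Pdha1 were at least 2-fold lower with LPS on their brightest probe sets. Pdk1, a kinase that inactivates pyruvate dehydrogenase, read 311.1 in media, 276.9 after SEA, 52.9 after LPS and 151.2 after SEA/LPS. The LPS array stood far below the rest and SEA/LPS lay between LPS and media. Pdk1 was 5.88-fold lower with LPS than in media, 2.86-fold higher with SEA/LPS than with LPS and 2.06-fold lower with SEA/LPS than in media. Its other probe set read 185.2, 201.3, 77.1 and 98.2, also lowest with LPS and next with SEA/LPS but with SEA above media, at -1.26 for LPS over media and 0.35 for SEA/LPS over LPS. Averaged over both probe sets the LPS difference was -1.91, and the SEA/LPS over LPS difference was 0.93, short of 2-fold. Pdha1, the alpha subunit of the enzyme, read 562.9, 431.5, 237.0 and 369.3, which is 2.38-fold lower with LPS than in media. Its second, dimmer probe set went the other way at 134.9, 161.6, 145.7 and 79.2, so the mean of both was -0.57 for LPS over media. Pdk3, another kinase, and Pdhb, the beta subunit, differed from media by -0.10 and -0.16 with LPS, and Pdk3 was 0.04 with scaling to the 75th percentile.

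Among the hypoxia genes Hif1a was above media with LPS on its brightest probe set, while Egln1, Egln3 and Bnip3 were below it. Hif1a read 1283.7 in media, 1896.6 after SEA, 2508.3 after LPS and 2777.6 after SEA/LPS, so media was lowest and both LPS arrays were highest. The differences from media were 0.56 with SEA, 0.97 with LPS (1.95-fold) and 1.11 with SEA/LPS (2.16-fold). Of the 3 other Hif1a probe sets, one read 0.69 and one 1.14 for LPS over media; the last was dim, at 45.3 in media and under the floor with LPS, which makes it at least 1.36-fold lower. Under 4 of 8 other settings the SEA/LPS difference of Hif1a was under 2-fold, with a smallest value of 0.58 for the mean of its probe sets. Egln3 and Egln1 encode the prolyl hydroxylases. Egln3 read 1178.0, 1239.6, 682.0 and 830.1 (LPS difference -0.79), and its other probe set read 556.4, 414.1, 86.9 and 162.2 (-2.68). Egln1 read 326.2, 293.2, 230.7 and 388.4 (-0.50), and its other probe set 427.5, 323.7, 183.4 and 320.4 (-1.22), with LPS the lowest array on both. Bnip3, a mitochondrial protein of mitophagy and cell death, read 1228.6, 1270.0, 859.1 and 1100.6. Vegfa, which encodes the vascular growth factor, read 669.2, 538.7, 812.9 and 1327.1, highest with SEA/LPS and 1.98-fold above media there. Its other probe set gave a smaller SEA/LPS difference from media (0.43).

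All 5 measured genes of the pentose phosphate pathway were below media with LPS (median -0.74), with Tkt at 0.00 when scaled to the 75th percentile. Below 0 in that comparison were 53.3% of all genes and 57.6% of those above the floor throughout. Taldo1, transaldolase of the non-oxidative branch, read 1030.3 in media, 1114.2 after SEA, 400.2 after LPS and 590.0 after SEA/LPS, 2.57-fold lower with LPS than in media. It has a single probe set, and its LPS difference stayed past 2-fold in each of the 7 other settings that measured it. Both other floors and the mean of probe sets left that difference unchanged. Pgd, the second dehydrogenase of the oxidative branch, read 3313.4, 3976.2, 1977.7 and 3175.2. Its LPS array stood alone below the rest, at -0.74, with the 3 other probe sets at -0.25, -0.91 and -0.96. Pgls, the lactonase between the dehydrogenases, read 1159.1, 1147.7, 785.3 and 894.9. Rpia, ribose phosphate isomerase, differed from the others in that its 3 treated arrays were alike at 156.0 for SEA, 170.5 for LPS and 163.1 for SEA/LPS, against 290.5 in media. Tkt, transketolase, was near even at 2947.9, 3489.7, 2684.9 and 2702.6.

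SEA over media showed little in these genes, as it did over all genes. None of the 30 was 2-fold higher or lower, against backgrounds of 0.644% and 0.633% of all genes and 0.392% each of those above the floor throughout. The median difference was -0.01, beside 0.00 over all genes, and 16 of 30 (53.3%) were below 0, against 45.5% of all genes and 48.8% of those above the floor throughout. In 27 of 30 genes the SEA difference was at most 0.5 log2 in size. The exceptions were Rpia, 1.86-fold lower with SEA (-0.90), Slc16a3, 1.59-fold lower (-0.67), and Hif1a, 1.48-fold higher (0.56); the first 2 rest on 1 probe set each. The other Hif1a probe sets read 0.32, -0.14 and -0.30 for SEA over media, and the mean over its probe sets was 0.11. Of the 18 genes with a further probe set above the floor, the mean of the further ones pointed the same way in 7, so the sign of such small differences was not held by a second probe set in most of these genes.

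The effect of SEA in cells that also met LPS was read from SEA/LPS over LPS. Pdk1 was the one gene of 30 at least 2-fold higher (3.33%, background 1.39% of all genes and 1.36% of those above the floor throughout), and Slc16a3 the one at least 2-fold lower (3.33%, backgrounds 3.47% and 3.08%). With scaling to the 75th percentile or quantile normalization Pdk1 alone remained, and with scaling to the hybridisation controls 2 were higher and 0 lower. The median difference was 0.17, beside -0.01 over all genes and over the 7142 genes above the floor on every array. Below 0 were 9 of the 30, against 50.6% of all genes and 50.9% of those above the floor throughout. Above 0 were 21, among them Slc2a1 (0.82), Egln1 (0.75), Aldoc (0.73), Vegfa (0.71), Pgd (0.68), Pdha1 (0.64) and Taldo1 (0.56), while Pkm (-0.93), Pgam1 (-0.79), Hk1 (-0.67) and Hk2 (-0.48) lay below 0. Pdha1 was -0.12 on the mean of its probe sets, and Slc2a1 was -0.15 without probe sets that may match several transcripts. The 2-fold line ran between Slc16a3 (-1.03) and Pkm (-0.93).

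The LPS array was the lowest of the 4 for 17 of the 30 genes (56.7%), against a background of 32.4% of all genes and 34.9% of those above the floor throughout. The SEA/LPS array was lowest for 4 genes, Hk1, Pgam1, Pkm and Slc16a3 (13.3%, backgrounds 32.1% and 30.9%), the SEA array for 6 (backgrounds 15.9% and 15.2%) and the media array for 3 (10.0%, backgrounds 19.6% and 19.0%). The highest signal was in media for 11 genes (36.7%, background 28.5%), on the SEA array for 9 (background 29.0%), on the LPS array for 5 (16.7%, background 27.8%) and on the SEA/LPS array for 5 (16.7%, background 14.8%). By role the genes lowest with LPS were 4 of 5 pentose phosphate genes, 3 of 4 of pyruvate dehydrogenase and its kinases, 3 of 5 hypoxia genes, 2 of 3 of lactate export, 4 of 7 of upper glycolysis, 1 of 3 of glucose entry and 0 of 3 of lower glycolysis. Each gene stands there on its brightest probe set, and the other probe sets of Pgk1 were lowest with LPS. The SEA/LPS signal lay between those of LPS and media for 19 of 30 genes (63.3%), against 38.2% of all genes and 44.0% of those above the floor throughout. The comparisons of LPS with media and of SEA/LPS with LPS share the LPS array, so a low reading on it moves them in opposite directions. SEA/LPS over media does not use it: there 3 genes were at least 2-fold lower (Slc16a3, Pdk1 and Pkm; 10.0%, backgrounds 7.05% and 6.92%) and 1 higher (Hif1a; 3.33%, backgrounds 4.54% and 4.94%). The split was 2 higher and 1 lower with scaling to the 75th percentile, and 0 higher and 8 lower with scaling to the hybridisation controls. The median of SEA/LPS over media was -0.17, beside -0.12 over all genes and -0.16 over those above the floor throughout, and it was 0.028 with scaling to the 75th percentile. In that comparison 22 of 30 genes (73.3%) were below 0, against 58.8% of all genes and 62.6% of those above the floor throughout.

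**Figure D3:**
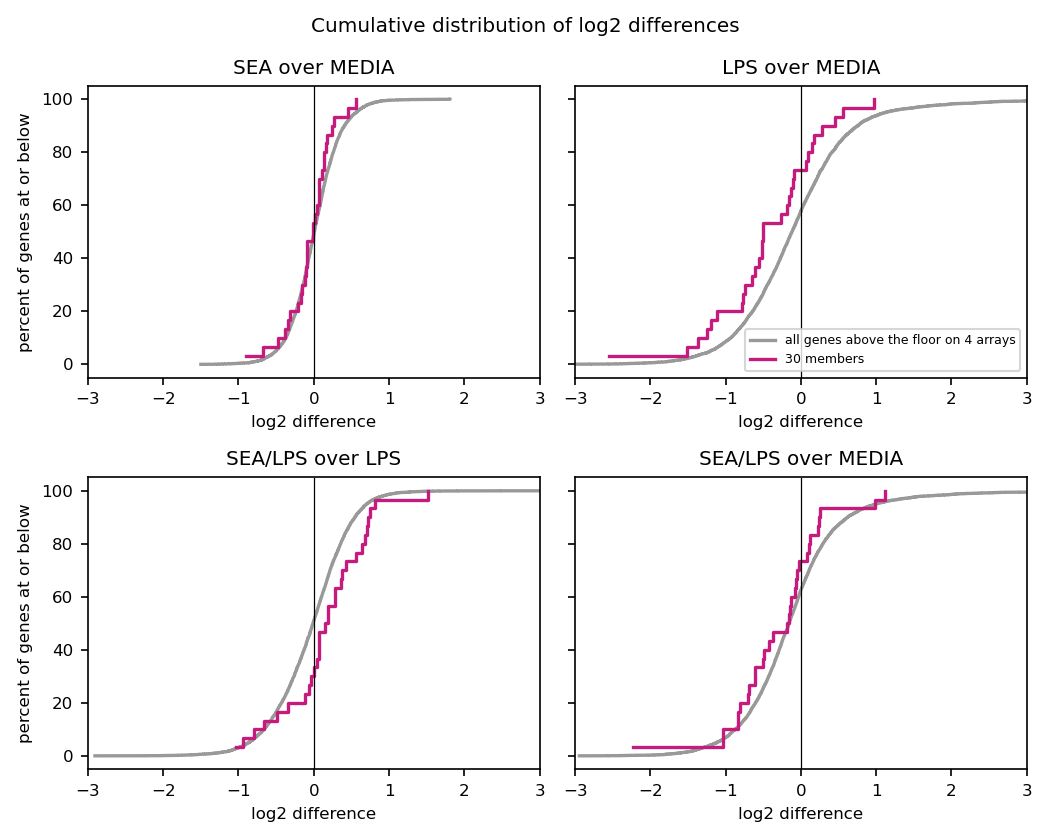
Percent of genes at or below a log2 difference (vertical axis) against that difference (horizontal axis) for the 30 genes and for the 7142 genes above the floor on all 4 arrays, in the 4 comparisons. Around the medians the curve of the 30 genes lies left of the other for LPS over media (medians -0.50 and -0.12) and right of it for SEA/LPS over LPS (0.17 and -0.01).

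The SEA difference could be read both without LPS and with it, on arrays that the 2 readings do not share. The sign was the same for 15 of 30 genes (50.0%), against 43.6% of all genes and 50.1% of those above the floor throughout. Slc16a3 was lower with SEA in both (-0.67 and -1.03). Pdk1 read -0.17 without LPS and 1.52 with it, Pdha1 -0.38 and 0.64, and Vegfa -0.31 and 0.71. On the brightest probe sets these 3 were the genes for which the second reading exceeded the first by 2-fold or more (10.0%, background 3.16%). There 0 genes went 2-fold the other way (background 6.54%). Both counts rest on the choice of probe set. The other probe sets read 0.12 and 0.35 for Pdk1, 0.26 and -0.88 for Pdha1, and -0.15 and 0.49 for Vegfa, each short of that excess. The dimmer probe set of Hk1 went past 2-fold the other way, at 0.65 and -2.25, with SEA/LPS under the floor. The other probe sets of Egln1 (-0.40 and 0.80) and Egln3 (-0.43 and 0.90) went past 2-fold the first way. The median of the second reading minus the first was 0.21 over the 30 genes and -0.06 over all genes. With 1 array in each of the 4 conditions, no residual was left to test these differences.

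**Figure D4:**
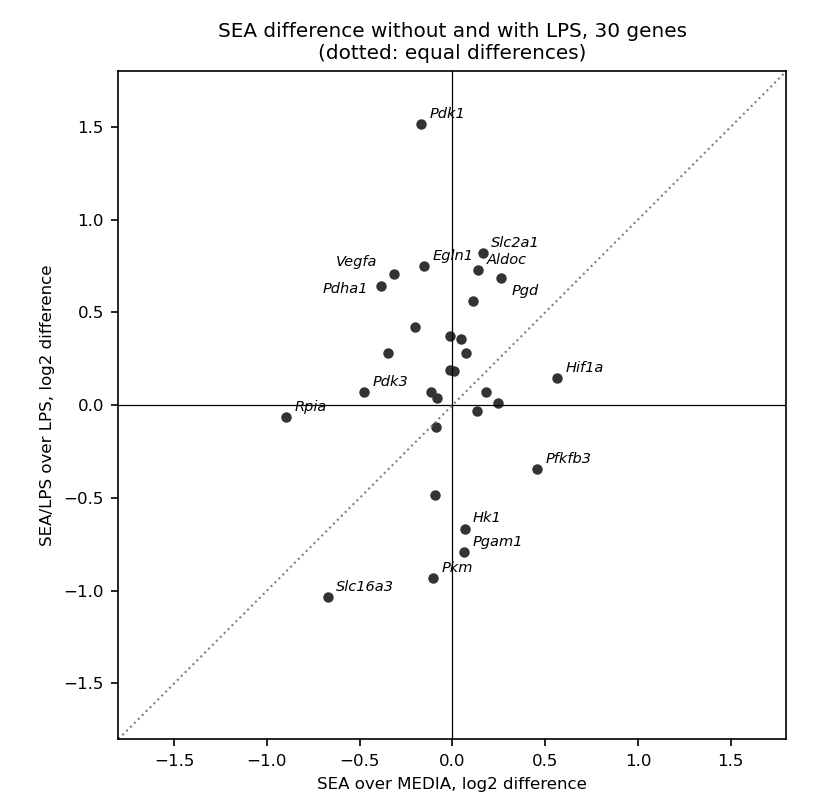
SEA over media (horizontal axis) against SEA/LPS over LPS (vertical axis), both as log2 differences, 1 point per gene for the 30 genes. Pdk1 stands at -0.17 and 1.52, far above the dotted line of equal differences, and Slc16a3 is low on both axes.

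How far a single probe set can be relied on was gauged from the 18 genes with more than 1. For LPS over media the mean of the other probe sets had the same sign in 13 of 18 genes, and the median gap in size was 0.38 log2. The 5 with the opposite sign were Pfkl, Pdha1, Pdhb, Pgk1 and Vegfa. Of the 6 genes 2-fold lower with LPS, Slc2a1 and Pdk1 were lower by at least 2-fold on every probe set, Pfkl and Pdha1 had a second probe set near 0, and Slc16a3 and Taldo1 had only 1. Over 8 other settings of scaling, floor and probe choice, the LPS direction of 21 of the 30 genes was the same in each setting that measured them, which included all 6. For a gene with 1 probe set the settings of probe choice could not change its direction.

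**Figure D5:**
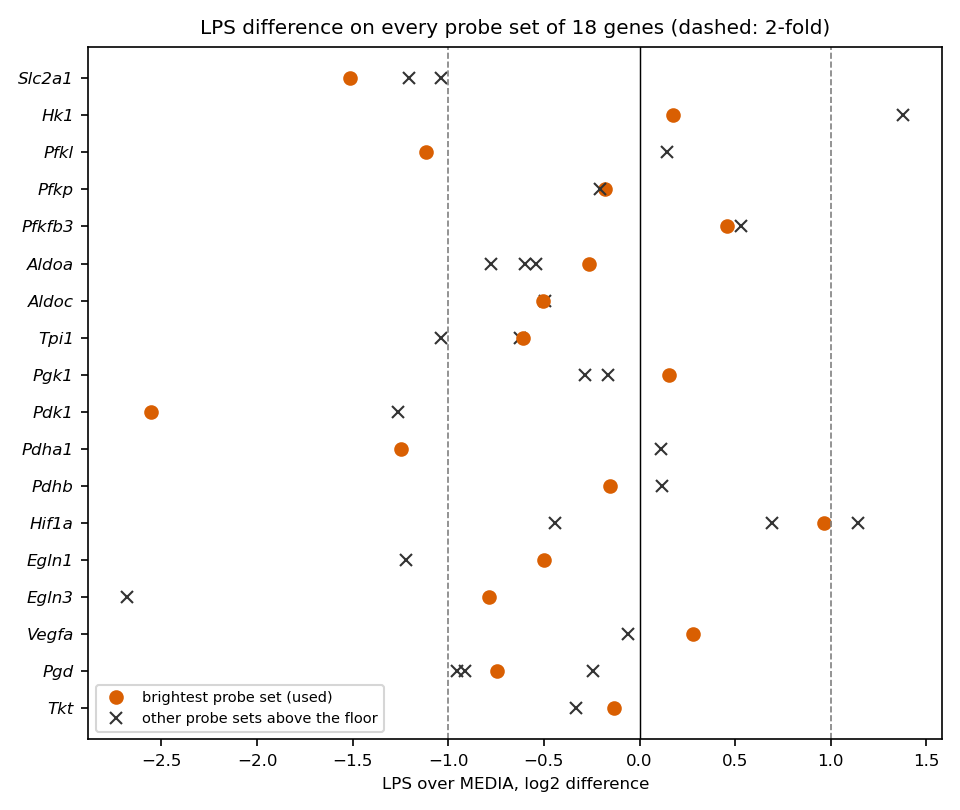
LPS over media as a log2 difference (horizontal axis) for every probe set above the floor of the 18 genes with more than 1, with the brightest as a filled circle and the others as crosses. Slc2a1 and Pdk1 lie left of the 2-fold line on all probe sets, whereas Pfkl and Pdha1 have a cross right of 0.

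Other genes of the same pathways were taken from a list of 91: 68 had a probe set and 59 were measured. Their median LPS difference was 0.08, with 5 of 59 at least 2-fold lower and 1 higher, beside backgrounds of 8.43% and 6.06%; no test compared them with the 30 genes. Of 14 other glucose transporters and glycolytic enzymes 1 was at least 2-fold lower with LPS, near the share of all genes (7.14%, background 8.43%). This was Slc2a8, an intracellular glucose transporter, and none of the others passed 2-fold in any comparison. Slc2a8 read 207.3 in media, 141.1 after SEA, 93.3 after LPS and 99.2 after SEA/LPS (LPS difference -1.15). Of 18 other hypoxia genes, 3 were at least 2-fold lower with LPS (16.7%, background 8.43%) and 0 higher. By sign alone 6 lay below 0 and 11 above it, with a median of 0.20. Ddit4, which restrains mTOR signalling under stress, read 242.6, 85.8, 50.5 and 49.0, already 2.83-fold lower with SEA alone. Vhl, the ubiquitin ligase subunit that recognises hydroxylated Hif1a protein, read 258.7, 176.2, 109.1 and 70.4, which is 2.37-fold lower with LPS and 3.67-fold lower with SEA/LPS than in media. Kdm4b, a histone demethylase, was at the floor on both LPS arrays and lower by at least 2-fold there, and short of 2-fold with scaling to the 75th percentile or quantile normalization.

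A further 4 pathway genes passed 2-fold only in comparisons that use the SEA/LPS array. For SEA/LPS over LPS, 2 of the 59 other pathway genes passed the line downwards (3.39%, background 3.47%) and 0 upwards (background 1.39%). For SEA/LPS over media, 8 of the 59 passed it downwards (13.6%, background 7.05%) and 1 upwards (1.69%, background 4.54%). Among all genes the SEA/LPS array was lowest for 32.1%. Bsg, basigin, the chaperone that carries MCT1 and MCT4 to the cell surface, read 2415.0 in media, 2144.6 after SEA, 2643.5 after LPS and 757.1 after SEA/LPS. As for Pkm and Pgam1, the SEA/LPS array stood alone below the other 3. Bsg was 3.49-fold lower in SEA/LPS than in LPS and stayed past 2-fold in each of the 7 settings that measured it, on a single probe set. Averaging over probe sets could therefore not change its value. Egln2, another prolyl hydroxylase gene, read 440.5, 407.2, 512.6 and 235.3, 2.18-fold lower in SEA/LPS than in LPS, or -0.88 under scaling to the hybridisation controls. Of 5 other pyruvate dehydrogenase and carrier genes, Dlat, the acetyltransferase subunit, read 210.6, 144.1, 117.1 and 78.8, and was 2.67-fold lower with SEA/LPS than in media but -0.62 without probe sets that may match several transcripts. Pdk2, a further kinase, read 70.6 in media and under the floor with SEA/LPS, at least 2.12-fold lower. None of 5 other pentose phosphate genes passed 2-fold in any comparison.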

How the data were processed

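The values are the authors' deposited table of 22690 probe sets on 4 arrays, in linear intensity that is already scaled to a common trimmed mean, judged from the values. The software and the scaling rule were not given in the sources used here. Probe sets were named through the platform annotation (20380 with 1 gene symbol, 691 with several, 1555 with none, 64 controls; 20351 matched GRCm38.p6 by Entrez identifier). Intensities were floored at their pooled 40th percentile and log2 was taken. The probe set with the highest mean per gene was used and genes with at least 1 array above the floor were counted as measured. A gene was called higher or lower at a difference of 2-fold if the brighter signal exceeded the floor. There was no test, since each group was 1 array. Where the dimmer signal was floored, the fold is a bound (at least).

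Full signals are given for members past 2-fold in any comparison and the member of largest difference in each role, and other members were described after their values were seen. Listed genes of the wider pathways are named where past 2-fold. The members, lists and motif were chosen with earlier results of these data known. The calling step was tested on simulated data in which bright genes changed well past 2-fold, with little noise and all probe sets of a gene moved alike. That setting cannot speak for calls near the 2-fold line or for probe sets that differ. Computations used Python 3.11.15, numpy 2.4.6 and pandas 2.3.3. Alternatives were 3 scalings, 2 other floors (percentiles 20 and 60), a pseudocount of 16 with no floor, the mean of probe sets, the omission of probe sets that may match several transcripts, and a 1.5-fold line.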

Additional observations from a re-analysis of the deposited data

Results flagged for a closer look

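For 3 genes the SEA difference without LPS and that with LPS had opposite signs and lay at least 2-fold apart. The second minus the first was 1.68 for Pdk1, 1.02 for Pdha1 and 1.02 for Vegfa on the log2 scale, and the difference was not tested. In each the SEA array was below media and the SEA/LPS array above LPS. On the other probe sets the pairs of differences were 0.12 and 0.35 for Pdk1, 0.26 and -0.88 for Pdha1, and -0.15 and 0.49 for Vegfa.

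A further 2 probe sets that no comparison used were at least 2-fold brighter with LPS than in media, the array of untreated cells. The dimmer probe set of Hk1 read 61.0 in media and 158.6 with LPS (1.38 log2), where the brighter one read 0.17, and it was under the floor with SEA/LPS at 18.8. A dimmer probe set of Hif1a read 214.7 in media and 473.1 with LPS (1.14 log2), where the one used read 0.97.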

How the results depend on the processing

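No paired analysis was possible because each group had 1 array, and for the same reason no array could be left out. A median was taken as moved from 0.2 log2 and a count when it moved by over 1.5 times. As reported, the medians were -0.01 for SEA over media, -0.50 for LPS against media, 0.17 for SEA/LPS against LPS, -0.17 for SEA/LPS against media and 0.21 for SEA with LPS minus SEA without. Scaling to the hybridisation controls moved the last 4 to -1.05, 0.40, -0.49 and 0.53, with the medians of all genes at -0.56, 0.11 and -0.42 for the 3 comparisons. SEA/LPS over media turned to 0.028 with the 75th percentile and moved to -0.42 with quantile normalization. Both floors, the pseudocount, the mean of probe sets and the omission of probe sets moved no median by 0.2, but SEA/LPS over LPS went to 0.077 with the mean of probe sets and 0.072 without 8 members whose probe sets were omitted, and SEA/LPS over media to -0.35 with the mean.

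For LPS over media the count of higher genes went from 0 to 1 with the 75th percentile and with the 1.5-fold line, and that of lower genes from 6 to 16 with hybridisation controls and 11 with the 1.5-fold line, which also put 2 lower for SEA over media. For SEA/LPS over LPS 1 higher became 2 with hybridisation controls, 0 with the mean of probe sets and 7 with the 1.5-fold line. The 1 lower there became 0 with the 3 scalings and the pseudocount, 2 with the mean of probe sets and 4 with the 1.5-fold line. For SEA/LPS over media 1 higher became 2 with the 75th percentile and the 1.5-fold line and 0 with quantile normalization, hybridisation controls, the mean of probe sets and the omission of probe sets. The 3 lower there became 1 with the 75th percentile, 2 with quantile normalization and with the pseudocount, 8 with hybridisation controls and 10 with the 1.5-fold line. The cause was not tested. None of the 12 differences past 2-fold turned sign in the settings that measured them. Signal over the floor of 33.3 limits Pfkfb3 (60.1 to 82.6), Slc16a1 (63.4 to 99.4) and Pdk1 after LPS (52.9).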

Other observations

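Side branches of hexose metabolism were also read, from a list of 17 genes with 13 measured. Gpd2, the mitochondrial glycerol phosphate dehydrogenase that passes electrons from glycolysis to the respiratory chain, read 378.1 in media, 394.1 after SEA, 1129.5 after LPS and 1010.7 after SEA/LPS. Both LPS arrays stood far above both others, 2.99-fold and 2.67-fold over media, past 2-fold in each of 8 other settings and on a single probe set. The settings of probe choice could therefore not change these values. Gpd2 was the 1 gene at least 2-fold higher with LPS among the 59 other pathway genes. Gys1, glycogen synthase, read 77.2 in media and 100.2 with SEA and was under the floor on both LPS arrays, at least 2.32-fold lower than media, and -0.03 log2 with the floor at percentile 60. The other 11 were within 2-fold of media on every array.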
